A study of Mus musculus with 6 samples.

Results

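Peaks of the RNA- and DNA-binding protein hnRNP UL1 at the nuclear genes for mitochondrial respiration and for the mitochondrial ribosome were described in RAW 264.7 cells, a mouse macrophage line. The members were chosen by gene name: every row of the deposited peak tables whose nearest gene has a symbol starting with Nduf, Uqcr or Atp5, with Cox and a digit, or with Mrpl or Mrps and a digit, together with Sdha to Sdhd. They came to 110 of the 18624 rows over all times and to 59 of the 7610 nearest genes. ChIP-seq for hnRNP UL1 (heterogeneous nuclear ribonucleoprotein U-like 1) was done in cells given bacterial lipopolysaccharide (LPS). The groups were cells without LPS (0 h), cells with LPS at 100 ng/ml for 4 h and cells with LPS at 100 ng/ml for 10 h, with 1 ChIP library each. An input library without antibody was made at each time, and the 3 inputs were not analysed here. All groups are the same line, which grows as a tumour-derived culture and stands in for macrophages of the animal. Markers of macrophages and of other cell types cannot be checked with peaks, which are not expression.

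Each row gives 1 peak as a point 2 bp wide, the gene with the nearest start, the distance to that start (of any of its transcripts, so that it can be an internal one) and a class such as promoter, intron or distal intergenic. The columns hold no height, width or depth of reads, so a peak is present or not listed, and a missing row may be a peak below an unknown threshold. The 0 h table held 33 member rows of 8425, with 70 of 9046 at 4 h and 7 of 1153 at 10 h. The tables run in the order of gene ID, and the 4 h and 10 h tables end early. Times were therefore compared for gene ID numbers below 27620 (0 h and 4 h, the longer range) or below 22416 (all times, the common range), and the resting state was taken from the whole 0 h table. Since every time has a single library, nothing was tested, no p-value is given, and library and time cannot be told apart. Intervals are exact 95% Clopper-Pearson bounds, or exact bounds conditional on the sum for ratios of counts, and cover counting error only.

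Oxidative phosphorylation runs through the electron transfer complexes I to IV and the ATP synthase of the inner mitochondrial membrane. Most of their subunits, and all proteins of the mitochondrial ribosome, are encoded in the nucleus and imported, while the mitochondrial ribosome makes the few subunits encoded by mitochondrial DNA. Nuclear factors known to act at the promoters of such genes include NRF1, GABP of the ETS family and YY1. In macrophages, LPS is known to shift energy metabolism from oxidative phosphorylation towards glycolysis, and succinate dehydrogenase (complex II) takes part in the inflammatory response.

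Promoter sequence from RefSeq (GRCm38.p6, the build of the tables) was matched for 154 of the 183 members of the annotation, from 250 bases before to 50 after the start. Of the members with a 0 h peak within 1 kb of the start, 16 had such a sequence. Among them is Sdha, whose 0 h point lay at an internal start, 21424 bp into the gene and away from its sequence. The motif AAGATGGCG, bound by YY1, was found on either strand in 5 of the 16 (31.2%, interval 11.0 to 58.7%) and in 8.70% (4.57 to 14.7%) of the 138 other members. These intervals overlap. The motif was in 11.0% of all 154 members and in 2.14% of the 17492 protein-coding promoters of the same length. Among the 1417 other genes with a 0 h promoter peak and a sequence it was in 3.25% (2.39 to 4.31%), below the interval of the 16 members. That share is also below the interval of the 138 members without such a peak, so the gap is not particular to members with one. Of the 9 motifs searched, AAGATGGCG differed most between members with and without a 0 h promoter peak. The 30-base windows of the 5 genes are printed because the match lies within 50 bases after the start in each, in the direction of transcription, with the peak point beyond it. Of the 12 other members with the motif, 9 also had it after the start in the direction of transcription, so that position is not particular to genes with a peak. Capitals mark the motif.
Ndufs4: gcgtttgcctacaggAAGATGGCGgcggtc
Ndufa9: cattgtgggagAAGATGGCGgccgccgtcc
Ndufc1: gcctgcggaacAAGATGGCGccgtccgtag
Ndufaf8: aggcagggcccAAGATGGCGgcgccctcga
Mrpl35: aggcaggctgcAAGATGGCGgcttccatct
With the start counted as base 1, the motif began at base 36 in Ndufs4, 30 in Ndufa9, 23 in Ndufc1, 11 in Ndufaf8 and 24 in Mrpl35. The 0 h points lay 245, 53, 80, 162 and 145 bp after the RefSeq start of the same genes in that order. The windows lie at chr13:114388045-114388074 (Ndufs4, minus strand), chr6:126849097-126849126 (Ndufa9, minus), chr3:51408915-51408944 (Ndufc1, minus), chr11:120098933-120098962 (Ndufaf8, plus) and chr6:71823743-71823772 (Mrpl35, minus). Among members of the longer range, the motif was found in 2 of 18 with a 4 h promoter peak (11.1%) and in 3 of 17 without one (17.6%), with intervals that overlap.

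Longer windows, 150 bases before to 30 after the RefSeq start, show the other matches at 5 members with a 0 h promoter peak. Ndufs8 had the most 0 h rows, Ndufa6 had a promoter peak at 0 h and at 4 h, and Mrpl33, Mrpl52 and Atp5g2 carry NRF1 or ETS motifs. Capitals mark matches of any of the 9 motifs searched on both strands. For NRF1 the search used GCATGCGC and a 10-base form that contains it. The ETS motifs were CCGGAAG and, with a possible overlap, GGAAGTG. The E-box was searched as CACGTG, the cAMP response element (CRE) as TGACGTCA, the GC box as GGGCGG and the TATA box as TATAAA.
Ndufs8: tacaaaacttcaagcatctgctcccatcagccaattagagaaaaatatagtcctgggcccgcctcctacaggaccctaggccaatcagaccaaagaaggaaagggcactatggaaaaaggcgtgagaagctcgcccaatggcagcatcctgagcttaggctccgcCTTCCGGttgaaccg
Ndufa6: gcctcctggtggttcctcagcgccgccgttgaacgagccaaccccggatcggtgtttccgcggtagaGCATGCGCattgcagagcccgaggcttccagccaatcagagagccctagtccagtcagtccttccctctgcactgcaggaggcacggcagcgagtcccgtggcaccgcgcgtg
Atp5g2: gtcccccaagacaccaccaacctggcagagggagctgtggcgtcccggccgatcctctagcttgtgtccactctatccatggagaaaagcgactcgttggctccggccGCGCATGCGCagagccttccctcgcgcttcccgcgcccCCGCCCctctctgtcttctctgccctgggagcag
Mrpl33: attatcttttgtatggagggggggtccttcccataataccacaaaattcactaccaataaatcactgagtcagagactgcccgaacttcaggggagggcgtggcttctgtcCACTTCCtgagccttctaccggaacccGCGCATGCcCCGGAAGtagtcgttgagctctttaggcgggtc
Mrpl52: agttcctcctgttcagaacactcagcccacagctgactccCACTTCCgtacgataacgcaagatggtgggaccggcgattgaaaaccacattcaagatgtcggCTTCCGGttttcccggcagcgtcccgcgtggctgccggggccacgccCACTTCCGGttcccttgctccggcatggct
The windows are chr19:3912745-3912924 (Ndufs8, minus strand), chr15:82354262-82354441 (Ndufa6, minus), chr15:102671018-102671197 (Atp5g2, minus), chr5:31613801-31613980 (Mrpl33, plus) and chr14:54426759-54426938 (Mrpl52, plus). Their 0 h points lay 114 (Ndufs8), 211 (Ndufa6), 108 (Atp5g2), 122 (Mrpl33) and 68 bp (Mrpl52) after the RefSeq start.

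The ETS and NRF1 motifs were common in members with and without a peak. CCGGAAG was in 37.5% of the 16 members with a 0 h promoter peak, in 31.9% of the 138 others, in 21.7% of other genes with a 0 h promoter peak and in 12.9% of all promoters. GGAAGTG was in 31.2% of members with a peak, 16.7% of those without, 16.7% of other genes with a peak and 13.6% of all promoters. GCATGCGC was in 18.8% of members with a peak, 12.3% of those without, 6.49% of other genes with a peak and 3.94% of all promoters. The 10-base form was in 6.25%, 6.52%, 2.19% and 1.47% of the same sets. The GC box GGGCGG was in 43.8% of members with a 0 h promoter peak (19.8 to 70.1%), 48.6% of those without and 49.2% of all promoters. It was in 74.0% (71.7 to 76.3%) of other genes with a 0 h promoter peak, above the members' interval. This gap was not seen for 4 h peaks of members. In the longer range GGGCGG was in 13 of 18 members with a 4 h promoter peak (72.2%, 46.5 to 90.3%). Without such a peak it was in 7 of 17 (41.2%, 18.4 to 67.1%), and these intervals overlap. CACGTG and TGACGTCA were in 0 of the 16 members with a peak, which allows up to 20.6%, against 7.97% and 4.35% of members without, 13.2% and 3.18% of other genes with a peak and 8.91% and 2.54% of all promoters. TATAAA was in 6.25% of members with a peak, 9.42% of those without, 8.61% of other genes with a peak and 14.8% of all promoters. With 16 genes, the intervals of members with and without a peak overlap for each of these motifs. A match describes letters in a window and is not a site of binding.

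In unstimulated cells, a peak named the members about as often as other genes. Complex I held the most of the genes named, 10 of its 39, and its interval (13.0 to 42.1%) holds the background of 15.8%. A 0 h row named 29 of the 183 members of the annotation, or 15.8% (10.9 to 22.0%), counting Atp5md, which the table lists as Usmg5. The background over all 21887 protein-coding genes was 15.8%, so the members as a whole were named as often as other genes. A row within 1 kb of the start was found for 19 of the 183, or 10.4% (6.37 to 15.7%), with a background of 8.00%. The background falls within the interval. Members are short, with a median span of 7.50 kb against 17.3 kb for other genes. Among genes under 20 kb, 20 of 157 members had a row (12.7%, 7.96 to 19.0%), against 8.93% of other genes (8.42 to 9.46%), and 9.55% (5.45 to 15.3%) against 5.13% (4.74 to 5.55%) had one within 1 kb of the start.

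**Figure D1:**
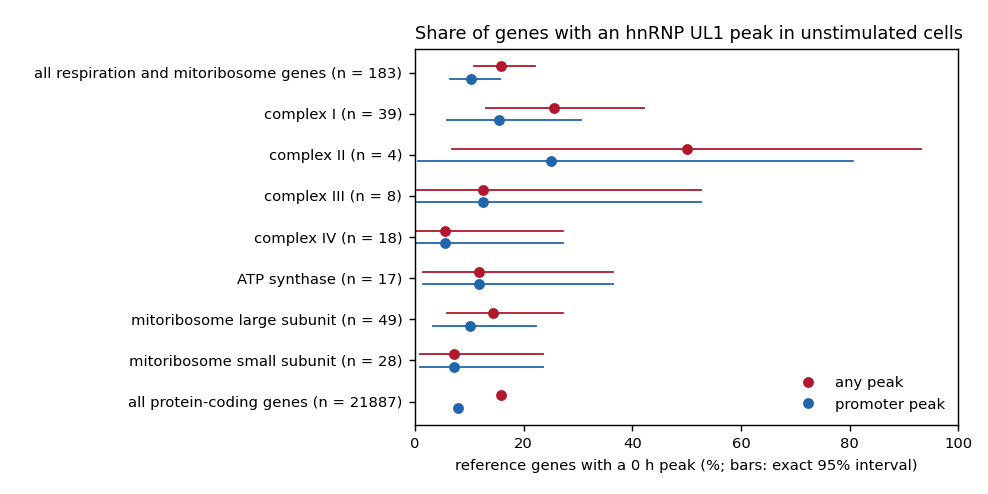
Share of genes named by a 0 h peak (horizontal axis, percent of the genes of each group in the reference), for any peak (red) and for peaks within 1 kb of the start (blue), with exact 95% intervals; 1 library. Complex I stands at 25.6% and complex IV at 5.56% for any peak, with overlapping intervals, and all respiration and mitoribosome genes stand at the 15.8% of all protein-coding genes.

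By complex, the share with any 0 h row was 10 of 39 genes in complex I (25.6%, 13.0 to 42.1%), 2 of 4 in complex II, 1 of 8 in complex III and 1 of 18 in complex IV (5.56%, 0.141 to 27.3%). It was 2 of 17 for the ATP synthase, 7 of 49 for the large subunit of the mitochondrial ribosome (14.3%, 5.94 to 27.2%) and 2 of 28 for its small subunit (7.14%, 0.877 to 23.5%). The intervals of all these groups overlap, so no order of the complexes can be read from 1 library. The respiratory complexes and the ATP synthase together had 16 of 86 genes named (18.6%, 11.0 to 28.4%), and the mitochondrial ribosome 9 of 77 (11.7%, 5.49 to 21.0%). Ribosome genes were grouped by symbol; in structures of the mammalian mitochondrial ribosome the proteins of Mrps18a and Mrps30 sit in the large subunit.

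Resting peaks of the members lay mostly at starts. Of the 33 rows, 18 were within 1 kb of a start (54.5%, 36.4 to 71.9%), against 2293 of 8392 rows of other genes (27.3%). Those of the other genes include rows of genes not matched to the reference, while all members are matched; over matched other genes the share was 34.9%. The members' lower bound exceeds both, and the shares differed with gene length. Under 20 kb, 14 of 23 member rows (60.9%, 38.5 to 80.3%) and 651 of 1298 rows of other genes (50.2%, 47.4 to 52.9%) were within 1 kb. For genes of 20 kb or longer the shares were 4 of 10 (40.0%, 12.2 to 73.8%) and 30.3% (28.9 to 31.7%). Matched for length in this way, the intervals overlap. Of the remaining member rows, 8 were intronic (24.2%), 5 lay between 1 and 3 kb of the start, 1 was distal intergenic and 1 just downstream of a gene.

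**Figure D2:**
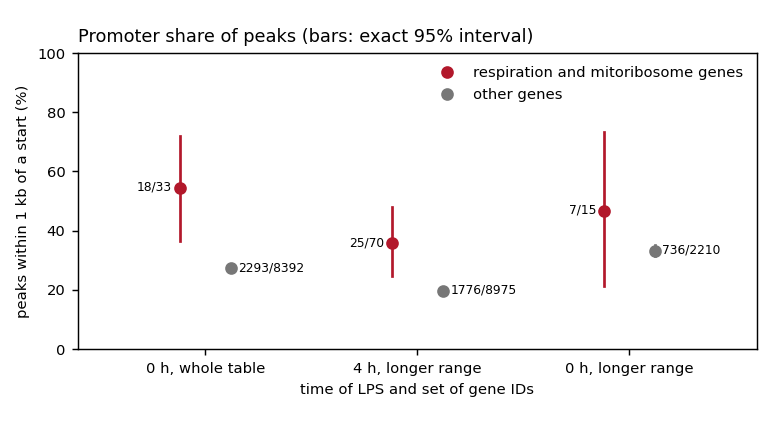
Share of peaks within 1 kb of the start of the nearest gene (vertical axis, percent) for respiration and mitoribosome genes (red) and other genes (grey), with exact 95% intervals and the counts beside each point; 1 library per time. The red points stand at 54.5% in the whole 0 h table, and at 35.7% at 4 h and 46.7% at 0 h in the longer range, each above the grey point beside it. The groups are not matched for gene length.

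Within the promoter class, most resting points lay just after the start. Their median was 72.0 bp downstream (quartiles 34.2 and 192 bp), against 44.0 bp for other genes (quartiles −146 and 196 bp). Between 1 and 300 bp downstream lay 14 of 18 member points (77.8%, 52.4 to 93.6%), against 40.3% of the other genes' (38.3 to 42.3%), a window chosen after the values were seen. The other genes here include genes not matched to the reference, and gene length was not matched. In the longer range the 0 h shares were 6 of 7 (85.7%, 42.1 to 99.6%) and 46.1% (42.4 to 49.7%), with intervals that overlap. Upstream of the start lay 4 of the 18 (22.2%, 6.41 to 47.6%), against 41.3% of other genes' points (39.2 to 43.3%). The 4 were Ndufaf8 at −2, Ndufa4 at −118, Mrps26 at −189 and Sdha at −345 bp. All but Sdha also lay within 1 kb of the gene's outermost start in the RefSeq annotation.

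**Figure D3:**
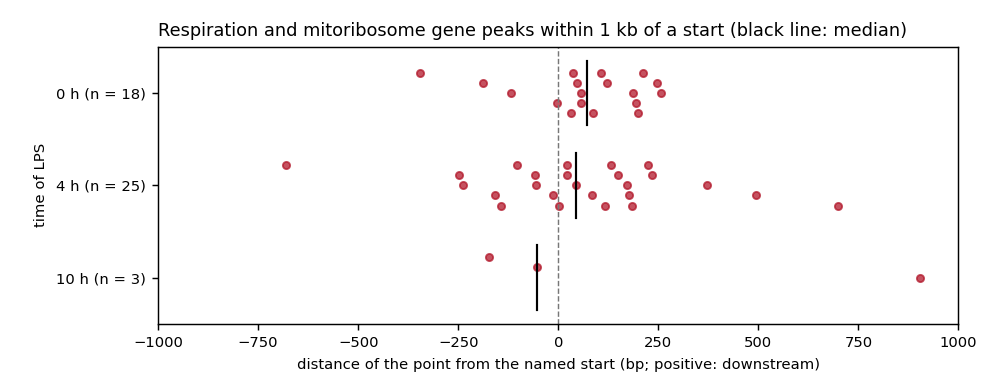
Distance of each respiration or mitoribosome gene peak in the promoter class from the start named for it (horizontal axis, bp, positive downstream), by time, with the median as a black line; vertical offsets within a time only separate points. The 0 h points have a median of 72.0 bp and all lie between −345 and 258 bp, and the 4 h points spread between −681 and 699 bp.

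Complex I takes electrons from NADH. Its core iron-sulfur subunit gene Ndufs8 (ENSMUSG00000059734) had 3 rows at 0 h, at 56 bp (chr19:3912660-3912661), −1.09 kb and 2.59 kb, the most of any member. They spanned 3.69 kb, and the next 0 h peak, at Tcirg1, lay 2.33 kb further. Ndufb9, an accessory subunit of the membrane arm, had 2 rows, at 213 bp (chr15:58934021-58934022) and in intron 3 at 4.92 kb. Single promoter rows were found at Ndufa9 (33 bp), Ndufc1 (88 bp), Ndufa6 (108 bp) and Ndufs4 (199 bp), which are accessory subunits; loss of Ndufs4 in mice causes an encephalopathy like Leigh syndrome. The other complex I rows were away from starts: Ndufa12 in intron 3 of 4 at 7.68 kb, Ndufa10 in intron 9 of 9 at 15.0 kb, Ndufa8 at 13.5 kb just past the gene, and Ndufv2, a core subunit, at −3.26 kb. Of the assembly factors, Ndufaf8 had a point at −2 bp and Ndufaf6 one at −4.95 kb from an internal start, in intron 4 of 8 and 12208 bp into the gene.

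In complex II, which oxidises succinate, Sdha (the flavoprotein) had a row at −345 bp (chr13:74328816-74328817) and Sdhb (the iron-sulfur subunit) a row in intron 3 of 7 at 10.3 kb, while the membrane anchors Sdhc and Sdhd had none. The start named for Sdha is that of a short internal transcript, so the point lies 21424 bp into the gene. Complex III was represented by Uqcrq at 194 bp. Complex IV was represented by Ndufa4 alone, a subunit first assigned to complex I and now placed in complex IV, at −118 bp. Its paralog Ndufa4l2 had a row at −2.08 kb from an internal start, 3609 bp into the gene. Cox17, the copper chaperone of complex IV assembly, had one at 5.03 kb, inside another gene whose name was not available. The ATP synthase had a row at Atp5g2, one of the genes for subunit c of the rotor ring, at 187 bp (chr15:102670939-102670940), besides the row 679 bp from the start of Usmg5 (Atp5md), which the gene-name rule leaves out.

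Mitochondrial ribosome genes with a resting promoter row were Mrpl23 (38 bp), Mrpl52 (47 bp), Mrpl33 (56 bp), Mrpl35 (123 bp) and Mrpl14 (258 bp) of the large subunit, and Mrps28 (246 bp) and Mrps26 (−189 bp) of the small. All of the 5 large-subunit points lay downstream of the start. Mrpl16 had 2 rows, at 1.92 and 2.43 kb. Mrpl1 had 1 row at 9.64 kb, and Mrps28 a second row at −12.0 kb, inside Tpd52. No member row lay within 1 kb of any of the 26 pseudogenes with a matching symbol in the annotation. Of the members with a 0 h row, 24 of 28 had a single one (85.7%, 67.3 to 96.0%), against 73.6% of other genes (72.4 to 74.7%), and the mean was 1.18 rows per gene against 1.56. Gene length was not matched in this comparison.

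At 4 h of LPS the members had more rows than at 0 h, as did other genes. In the longer range they had 70 rows at 4 h and 15 at 0 h, which gives a 4 h to 0 h ratio of 4.67 (2.65 to 8.78), and other genes had 8975 and 2210 rows, for a ratio of 4.06 (3.88 to 4.26). Rows within 1 kb of a start numbered 25 and 7 for the members, giving a ratio of 3.57 (1.50 to 9.78), against 2.41 (2.21 to 2.63) for other genes. Rows elsewhere numbered 45 and 8, giving 5.62 (2.62 to 13.8), against 4.88 (4.62 to 5.17). Each of the members' intervals holds the other genes' ratio. Of the 42 members named in this range, 32 had more rows at 4 h than at 0 h (76.2%), with a background of 80.9%, and 7 had fewer (16.7%), with a background of 10.8%.

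By complex, the rows of the longer range at 4 h and 0 h were as follows. The ATP synthase had 10 rows at 4 h and 0 at 0 h, in 5 genes. Complex IV assembly genes had 12 and 0, complex I 25 and 9, complex I assembly genes 4 and 0, complex II 3 and 2, complex III 1 and 0, and complex IV 1 and 0. Grouped by symbol, the large ribosomal subunit had 8 and 4 and the small subunit 6 and 0. The small-subunit count includes the 4 h rows of Mrps18a and Mrps30, whose proteins sit in the large subunit. With these counts no difference between complexes was tested.

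**Figure D4:**
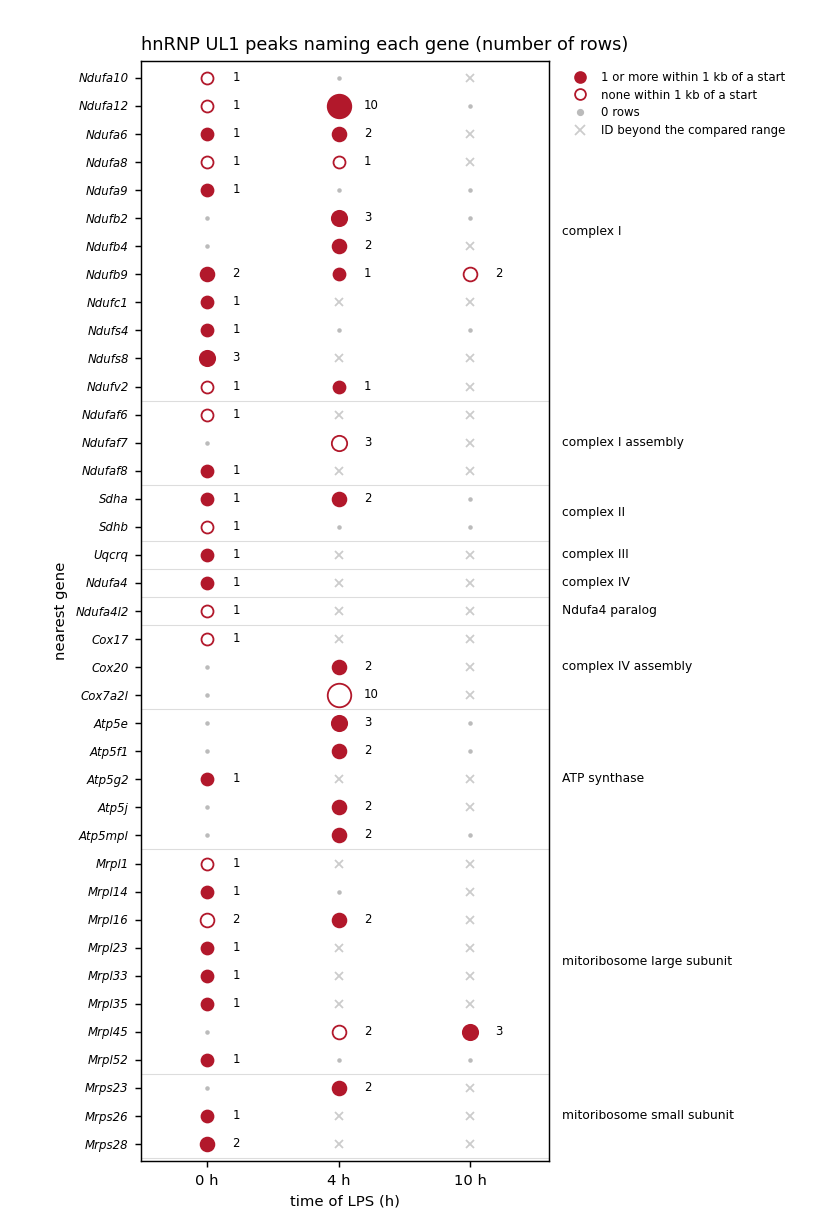
Number of peaks naming the respiration and mitoribosome genes with a peak at 0 h or at least 2 peaks at a later time, at 0, 4 and 10 h of LPS (columns), grouped by complex; filled circles have at least 1 peak within 1 kb of the start, circle area grows with the number printed beside it, dots are 0 rows, and crosses are gene IDs beyond the range compared. Ndufa12 and Cox7a2l stand out at 4 h with 10 peaks each. The ATP synthase genes in the range have peaks at 4 h only, as do 61.4% of all genes named in the longer range.

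Ndufa12 and Cox7a2l held 20 of the 70 rows at 4 h. Ndufa12 (ENSMUSG00000020022), an accessory subunit of the matrix arm of complex I, had 1 row at 0 h, 10 at 4 h and 0 at 10 h. The 4 h rows ran over 47.2 kb of chromosome 10, 7 of them between −55 bp and 21.9 kb, at and in the gene, and 3 beyond its end at 27.9, 31.2 and 47.0 kb. No other gene was named between them, and the next 4 h peaks, at Nr2c1 and Tmcc3, lay 36.5 and 63.0 kb away. Cox7a2l (ENSMUSG00000024248), whose protein joins complexes III and IV into supercomplexes, had 10 rows at 4 h and 0 at 0 h. Of these, 8 lay between −57.0 and −9.15 kb, upstream of the gene, 1 in intron 1 at 6.74 kb and 1 at 17.0 kb, past the gene's end, and none was within 1 kb of the start. The span was 74.0 kb of chromosome 17, with the nearest other 4 h peaks 261 kb away on either side. Without both genes, a step added after the data were seen, the ratio of 4 h to 0 h rows was 3.57 (1.94 to 7.00).

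**Figure D5:**
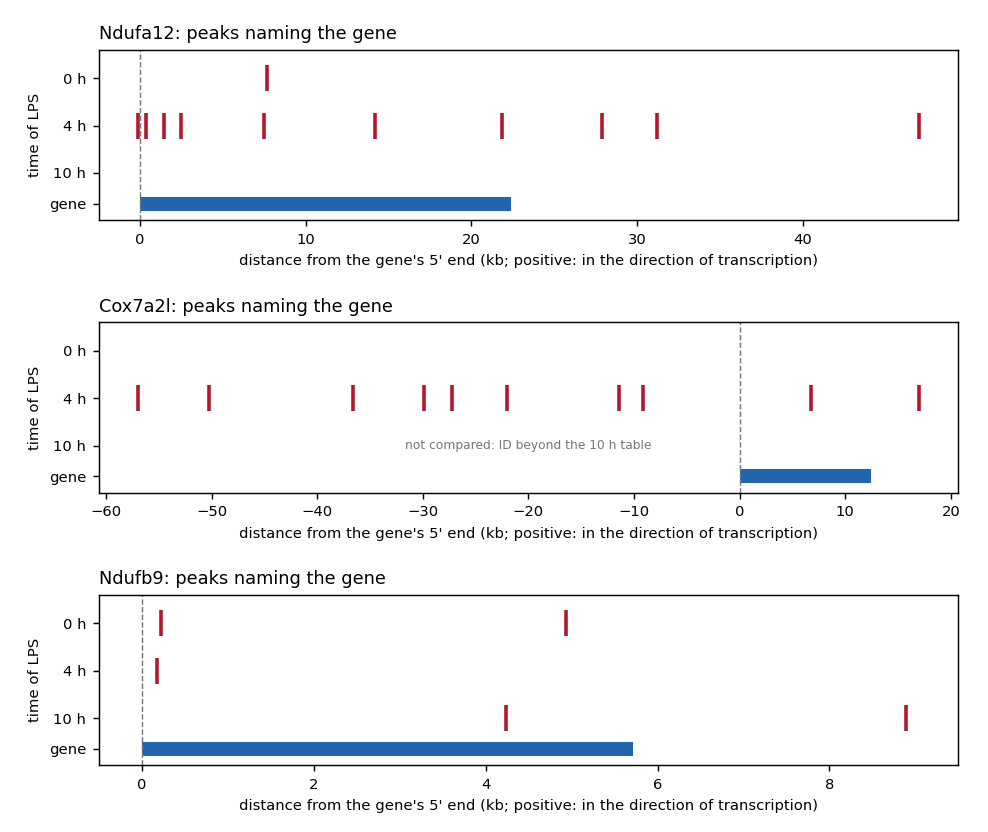
Positions of peaks naming Ndufa12, Cox7a2l and Ndufb9 (horizontal axis, kb from the gene's 5′ end in the direction of transcription) at 0, 4 and 10 h of LPS, with the gene as a blue bar and peaks as red ticks. Ndufa12 has 10 peaks over 47.2 kb at 4 h and 1 peak in the gene at 0 h, Cox7a2l has 8 of its 10 peaks upstream, and Ndufb9 has its start peak at 0 and 4 h and 2 later peaks at 10 h.

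The ATP synthase makes ATP from the proton gradient. At 4 h a promoter row was found at Atp5e (184 and −681 bp, with a further row at 1.40 kb), Atp5f1 (234 bp), Atp5j (−102 bp) and Atp5mpl (−12 bp). Atp5e encodes the epsilon subunit, Atp5f1 and Atp5j subunits of the peripheral stalk, and Atp5mpl a small membrane subunit. Atp5f1, Atp5j and Atp5mpl each had a second row, at 2.72, −2.65 and 3.84 kb, and Atp5g1, another subunit c gene, had 1 row at −3.87 kb. All 5 genes were without a row at 0 h, with a background of 61.4% of all genes named in the longer range with rows at 4 h only. The 4 of them in the common range were without a row at 10 h, where other genes had a 10 h to 4 h ratio of 0.218. Apart from Atp5e, which had 3 rows, these ATP synthase genes were named here after their values were seen, as were the other genes below with rows at 4 h only.

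At 4 h complex I promoter rows included those of Ndufa12 (−55 and 372 bp), Ndufa6 (133 bp), Ndufb2 (85 bp), Ndufb4 (224 bp), Ndufb8 (2 bp), Ndufb9 (173 bp), Ndufv2 (23 bp) and Ndufv3 (494 bp). Ndufb2, Ndufb4 and Ndufb8 belong to the membrane arm. Ndufb2 had 3 rows, of which those at 17.4 and 20.1 kb lie inside the gene Braf. Ndufaf7, a complex I assembly factor, had 3 rows at 2.19, 2.71 and 7.76 kb, the last inside the gene Prkd3, and none within 1 kb of a start; a peak at −239 bp from its RefSeq start was listed for Cebpz instead. Rows away from starts named Ndufa8 (8.14 kb), Ndufs3 (5.04 kb, downstream of the gene) and Ndufaf5 (15.6 kb). Another named Ndufs1, 6.78 kb from an internal start, past the gene's end and inside another gene whose name was not available. Second rows of Ndufa6 (−7.92 kb) and Ndufb4 (−10.8 kb) also lay away from starts. Ndufs1 and Ndufs3 are core subunits.

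In complex II, Sdha had 2 rows at 4 h, at 699 bp and 5.63 kb, and Sdhd had 1 at 150 bp, against 0 at 0 h, while Sdhb had 0 against 1 at 0 h. Uqcrc1, a core protein of complex III, had 1 row at −8.98 kb, and Cox4i2, an isoform of complex IV subunit 4, had 1 at 5.51 kb. Cox20, a complex IV assembly factor, had rows at −142 bp and 2.23 kb. In the ribosome, promoter rows named Mrpl13 (177 bp), Mrpl16 (−239 and 117 bp), Mrpl30 (23 bp), Mrps18b (45 bp), Mrps23 (−249 bp) and Mrps24 (−158 bp). Rows further away named Mrpl4 (−6.04 kb), Mrpl22 (1.11 kb), Mrpl45 (−6.10 and −4.71 kb), Mrps18a (−5.94 kb), Mrps30 (−7.50 kb) and Mrps23 (8.22 kb). Over all complexes, 5 of the 25 promoter points, among them those of Sdha, Mrpl30, Atp5j and Mrps23, were not within 1 kb of the gene's outermost RefSeq start.

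Rows listed at 0 h but not at 4 h were those of 6 members (14.3%, with a background of 8.12% of all genes named in the range): Ndufa9, Ndufa10, Ndufs4, Sdhb, Mrpl14 and Mrpl52. Among these, 4 had their 0 h row within 1 kb of the start (Ndufa9, Ndufs4, Mrpl14 and Mrpl52). Rows at both times were found for 7 members (16.7%, with a background of 30.5%) and rows at 4 h alone for 29 (69.0%, with a background of 61.4%). Of the 15 member peaks at 0 h, 3 had a 4 h peak within 500 bp (interval 4.33 to 48.1%), against 18.0% (16.4 to 19.6%) for other genes. These were the start peaks of Ndufa6 and Ndufb9, whose points lay 25 and 40 bp apart, and the Ndufa12 peak in intron 3, 195 bp from a 4 h point. At Sdha the nearest points of 4 h and 0 h were 1045 bp apart, and at Mrpl16 they were 1804 bp apart.

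The members' promoter share was 35.7% at 4 h (25 of 70 rows, 24.6 to 48.1%) and 46.7% at 0 h (7 of 15, 21.3 to 73.4%). For other genes it was 19.8% at 4 h (19.0 to 20.6%) and 33.3% at 0 h (31.3 to 35.3%). These shares were not matched for gene length, and members are short (median 7.50 kb against 17.3 kb), so the part of length in the 4 h difference was not tested. The members' shares at 4 h and 0 h overlap in their intervals. At 4 h, 22 of the 70 rows were distal intergenic (31.4%, 20.9 to 43.6%), and 12 of the 22 named Ndufa12 or Cox7a2l. Without both genes the members' 4 h promoter share was 46.0% (23 of 50, 31.8 to 60.7%). Of the 4 h promoter points, 13 of 25 lay between 1 and 300 bp downstream of the start (52.0%, 31.3 to 72.2%), against 31.5% for other genes at 4 h (29.4 to 33.7%), and the median was 45.0 bp.

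In the common range the members had 8 rows at 0 h, 35 at 4 h and 7 at 10 h, and other genes had 1304, 5263 and 1145. The ratio of 10 h to 0 h was 0.875 (0.270 to 2.76) for the members and 0.878 (0.810 to 0.951) for other genes. The ratio of 10 h to 4 h was 0.200 (0.0750 to 0.457) for the members and 0.218 (0.204 to 0.232) for other genes. The members' interval holds the other genes' ratio at both steps. Of the 24 members named in this range, 3 had more rows at 10 h than at 0 h (12.5%), with a background of 21.5%, and 6 had fewer (25.0%), with a background of 27.2%. Of the 15 with equal rows, Ndufb9 had 2 at both times and the others had rows at 4 h only.

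The 7 rows at 10 h named 4 genes. Mrpl45 (ENSMUSG00000018882), which tethers the mammalian mitochondrial ribosome to the inner membrane, had 3 rows, at 903 bp, −1.33 kb and −5.89 kb, against 0 at 0 h. The last of these lay 211 bp from a 4 h peak, the only 10 h member peak within 500 bp of one at 4 h. Ndufb9 had 2 rows at 10 h, in intron 3 at 4.23 kb and at 8.88 kb. The latter was classed as 3′ UTR but lay past the end of the RefSeq gene, which spans 5716 bp. At 0 h Ndufb9 had 2 rows at other points, the nearest 694 bp from a 10 h point. Cox6c, a complex IV subunit, had 1 row at −173 bp and Mrpl57, of the large ribosomal subunit, 1 at −54 bp, and neither had a row at 0 or 4 h. No 10 h member row lay within 500 bp of a 0 h row, against 8.03% of the 10 h rows of other genes (6.53 to 9.76%), and 0 of 7 allows up to 41.0%.

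Around the 1 kb bound of the promoter class, the nearest rows inside at any time were Mrpl45 (903 bp), Sdha (699 bp) and Atp5e (−681 bp), and the nearest outside were Ndufs8 (−1093 bp), Mrpl22 (1111 bp) and Mrpl45 (−1327 bp). A few peaks at member starts were listed under a neighbour. At the start of Mrpl21, points at −45 bp at 4 h and −66 bp at 0 h were given to Ighmbp2, whose start is adjacent on the other strand. A 4 h point 148 bp after the start of Cox15 was given to Cutc, and a 0 h point at −783 bp from the start of Cox10 to a gene listed without a name. Counted by position, 17 of 154 members had a 0 h point within 1 kb of a RefSeq start (11.0%, 6.56 to 17.1%), against 8.43% of other genes (8.02 to 8.86%).

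Shared start regions were common among the members. A gene on the other strand started within 1 kb of 57 of 154 members (37.0%, 29.4 to 45.2%), against 16.0% of other genes (15.5 to 16.6%). The share was 6 of 16 members with a 0 h promoter peak (37.5%) and 37.0% of those without one, which are about equal. The 6 were Atp5md (Pdcd11), Mrpl14 (Tmem63b), Mrps26 (4930473A02Rik), Ndufa4 (Phf14), Ndufaf8 (Tepsin) and Sdha (Ccdc127), with the neighbour in brackets. The 0 h point of Sdha lay at an internal start, 21424 bp into the gene, and not at the start shared with Ccdc127. For other genes the share with such a neighbour was 21.7% with a 0 h promoter peak (19.5 to 23.9%) and 15.5% without (15.0 to 16.1%).

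Other mitochondrial genes, outside the name rule, were taken from lists by function, and their shares are to be read beside the 15.8% of all protein-coding genes with a 0 h row. A 0 h row named 8 of 16 genes of the tricarboxylic acid cycle and pyruvate dehydrogenase (interval 24.7 to 75.3%), 7 of 21 of mitochondrial biogenesis and transcription (33.3%, 14.6 to 57.0%), 8 of 26 further assembly genes (30.8%, 14.3 to 51.8%) and 7 of 25 protein import genes (28.0%, 12.1 to 49.4%). It named 2 of 18 translation genes outside the rule (11.1%), and Cycs, the gene of cytochrome c, but not Cyc1. The background lies below the interval of the cycle list and within those of biogenesis, assembly, import and translation (1.38 to 34.7%). The median span in these lists was 8.89 kb for import and up to 23.8 kb for the cycle, against 7.50 kb for the members, and the part of length in these shares was not tested. In the longer range, rows at 4 h and 0 h numbered 14 and 8 for the cycle, 17 and 4 for biogenesis, 9 and 5 for assembly, 7 and 1 for translation and 17 and 6 for import. All genes outside the name rule had a 4 h to 0 h ratio of 4.06 in this range, and no difference between lists was tested.

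Among these genes Gabpb1, a subunit of the ETS factor GABP, had 4 rows at 4 h and 3 at 0 h, with 3 in the promoter class at each time. Gabpa, the DNA-binding subunit, had 3 rows at 4 h and 0 at 0 h; one of its starts lies 148 bp from a start of Atp5j on the other strand. Gabpb2 had 3 rows at 0 h. Yy1 had 2 rows at 4 h and 0 at 0 h, none in the promoter class. Timm22, of the inner membrane translocase, had 1 row at 0 h, 7 at 4 h and 2 at 10 h, and Uqcc1, a complex III assembly factor, had 2, 4 and 1. Pdhb, the beta subunit of pyruvate dehydrogenase, had 0 rows at 0 h, 4 at 4 h, 3 of them in the promoter class, and 1 at 10 h. Polg2, the accessory subunit of the mitochondrial DNA polymerase, had 1, 3 and 0.

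The remaining genes were also picked for at least 2 rows at any time, and 80.9% of all genes named in the longer range had more rows at 4 h. Dlat and Sucla2 each had 3 rows at 4 h and 1 at 0 h, and the import chaperone Hspa9 had 5 at 4 h and 3 at 0 h. Lrpprc and Mrm1 had 3 rows at 4 h and 0 at 0 h, and Tfb2m and Hspd1 had 2 at 4 h and 0 at 0 h. Dlst and Lyrm7 went the other way, with 0 rows at 4 h and 2 at 0 h. Ttc19 and Tomm20, whose IDs lie beyond the 4 h table, had 2 rows each at 0 h. Of the cell type markers, whose peaks are not expression, a 0 h row named 3 of 8 macrophage genes, 1 of 4 T and B cell genes, 0 of 3 neuronal genes and 1 of 3 hepatocyte genes, beside 15.8% of all protein-coding genes. Rows at 0, 4 and 10 h numbered 4, 22 and 5 for the macrophage genes and 1, 2 and 0 for the T and B cell genes. They numbered 0, 1 and 0 for the neuronal genes and 1, 0 and 0 for the hepatocyte genes. Times are not compared with these counts, since gene IDs beyond the compared ranges may be among them. In the longer range the 4 h to 0 h ratio of rows was 4.06 for all genes outside the name rule.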

How the data were processed

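The authors deposited 1 peak table for each of the 3 ChIP libraries, and per the file headers each row holds a point, a class, a nearest gene and a distance to its start. The submitters' processing notes list the build GRCm38 (mm10) and, without roles, the tools MACS2 2.1.0, BWA 0.7.12 and CASAVA 1.8. The annotation tool, the peak threshold and whether a point is a summit or a middle are not given in the sources used here. The depth is unknown, so precision is given as counting error only. Tables were read as they stand, and 1 incomplete 4 h row was left out. Gene names matched RefSeq GRCm38.p6 for 99.1% (0 h), 99.7% (4 h) and 99.9% (10 h) of named rows, and all 59 member genes matched. Symbols were matched, since that annotation carries no Ensembl IDs. Counts, shares and exact intervals were computed in Python 3.11.15 with pandas 2.3.3 and scipy 1.17.1. Of the steps, the search for nearby points and the merging of close rows were tested on simulated data. No test was made, since each time has 1 library. Members and gene lists were chosen with earlier results of these data known. Genes were named where they had at least 3 rows at any time, rows at 2 or more compared times, the most 0 h rows of their complex (up to 6), or belonged to complex II, and other mitochondrial genes with at least 2 rows; further names were chosen after their values were seen. Promoter sequence was not used for 29 members. A few genes of the lists are not reported here.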

Additional observations from a re-analysis of the deposited data

How the results depend on the processing

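Alternatives were run for the shares, the ratios and the overlap of peaks, 30 in all, and 28 stayed within the interval of the reported value. Several of the 28 left the counts unchanged, others reused most of the same rows, and the intervals are wide. The number within the interval is therefore no measure of robustness. The other 2 changed the distance by construction. Counting only rows within 1 kb of the start gave 10.4% of members named at 0 h, against 15.8% for rows at any distance. Counting promoter classes out to 3 kb gave a 4 h promoter share of 48.6%, against 35.7% within 1 kb. Leaving out Ndufa12 and Cox7a2l together was chosen after seeing the data and kept both results within their intervals. No paired analysis was possible because each time has 1 library and no result comes from a test. For the same reason no replicate could be left out, and a stricter peak threshold was not run, since the tables hold no heights. Read depth, which is unknown, limits every count of peaks: a gene without a row may have a peak below the threshold, and the part of depth in the 4 h, 10 h and 0 h totals was not tested. With 7 member rows at 10 h and 8 at 0 h in the common range, a ratio between 0.270 and 2.76 cannot be told from the reported 0.875.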
